A study of Mus musculus with 36 samples.

Results

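The genes described here are 8 growth-arrest and early-response genes of the mouse: Gadd45a, Gadd45b, Gadd45g, Btg1, Btg2, Sertad1, Ier2 and Ier5. They were chosen by name from a table of 52636 genes, with the effect of imipramine on these same libraries already known, so the imipramine differences of the 8 genes are given as a description and not as a test. All 8 were found in the table, and all 8 passed the filter on low values (at least 0.1 TPM, a relative abundance corrected for transcript length and scaled to the same total in each library, in at least 8 libraries) that 25572 genes passed. Each of 36 libraries held the RNA of 1 mouse, from a punch of its anterior cingulate cortex (aCC) on the right side. The mice were females, aged 8 to 11 weeks, of the strain that the labels give as C57BL/6NTac-Brd1, and were either wild type (WT) or heterozygous for a targeted deletion in Brd1 (Brd1+/-, allele tm1.2Arte), which encodes a bromodomain scaffold protein of histone acetyltransferase complexes, and were injected with saline (vehicle) or with the tricyclic antidepressant imipramine (IMN) at 10 mg/kg. There were 8 WT vehicle, 10 WT IMN, 9 Brd1+/- vehicle and 9 Brd1+/- IMN libraries. Mice of all 4 groups had been through tail suspension, open field and forced swim tests before the brains were taken, so no group was without handling or swim stress, and the mutants were 1 line on 1 inbred background.

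GADD45 proteins are small acidic proteins that cells make after stress, and Gadd45b is also made in neurons soon after they fire. They bind the kinase MAP3K4 upstream of p38 and JNK, the replication clamp PCNA and the mitotic kinase CDK1, and take part in DNA repair and in the removal of DNA methylation together with TDG and TET enzymes. BTG1 and BTG2 are antiproliferative adaptors that bring the CCR4-NOT deadenylase to mRNAs and bind the arginine methyltransferase PRMT1. SERTAD1 is a small nuclear protein that binds CDK4 and the E2F-DP transcription factors. IER2 and IER5 are encoded by immediate-early response genes, and IER5 binds the phosphatase PP2A and the heat-shock factor HSF1. Transcripts of most of these genes are short-lived and change within an hour or so of a stimulus.

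All 8 are protein-coding genes that span 1522 (Ier2) to 5804 bases (Btg1) in the GENCODE annotation of GRCm38. Gadd45a (ENSMUSG00000036390) lies at chr6:67035096-67037457 (- strand), Gadd45b (ENSMUSG00000015312) at chr10:80930073-80932204 (+ strand) and Gadd45g (ENSMUSG00000021453) at chr13:51846678-51848468 (+ strand). Btg1 (ENSMUSG00000036478) lies at chr10:96617006-96622809 (+ strand) and Btg2 (ENSMUSG00000020423) at chr1:134075170-134079120 (- strand). Sertad1 (ENSMUSG00000008384) lies at chr7:27486910-27490316 (+ strand), Ier2 (ENSMUSG00000053560) at chr8:84661331-84662852 (- strand) and Ier5 (ENSMUSG00000056708) at chr1:155096361-155099636 (- strand). The 8 genes do not overlap one another, and overlap with other genes was not examined.

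RefSeq promoter sequences (GRCm38.p6) were found for 7 of the 8 genes, the exception being Ier2. The 250 bases before the RefSeq start are shown for Gadd45b, Gadd45g, Btg2 and Sertad1, because these genes correlated positively between mice as described further on. Ier2 and Btg1 correlated with some of them about as strongly. Capitals mark the E-box CACGTG, the cAMP response element (CRE) half-site TGACG, the CCAAT box and the TATAAA box, each on either strand.

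Gadd45b, chr10:80929841-80930090 (+ strand): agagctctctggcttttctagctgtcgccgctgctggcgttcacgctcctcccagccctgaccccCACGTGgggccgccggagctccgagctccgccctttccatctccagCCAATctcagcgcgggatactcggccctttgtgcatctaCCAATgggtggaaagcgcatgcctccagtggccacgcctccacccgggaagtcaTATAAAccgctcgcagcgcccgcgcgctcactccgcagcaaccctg

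Gadd45g, chr13:51846425-51846674 (+ strand): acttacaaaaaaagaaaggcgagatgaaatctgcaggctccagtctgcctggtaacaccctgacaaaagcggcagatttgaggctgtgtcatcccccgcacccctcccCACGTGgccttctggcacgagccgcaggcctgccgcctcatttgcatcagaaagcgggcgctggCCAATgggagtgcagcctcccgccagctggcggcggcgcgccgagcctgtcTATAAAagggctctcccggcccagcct

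Btg2, chr1:134079156-134079405 (- strand): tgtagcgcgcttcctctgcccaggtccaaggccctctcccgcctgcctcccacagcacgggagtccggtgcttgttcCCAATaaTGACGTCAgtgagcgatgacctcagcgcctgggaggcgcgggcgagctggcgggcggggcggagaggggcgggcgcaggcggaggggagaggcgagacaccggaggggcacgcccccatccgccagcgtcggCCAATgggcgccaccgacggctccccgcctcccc

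Sertad1, chr7:27486703-27486952 (+ strand): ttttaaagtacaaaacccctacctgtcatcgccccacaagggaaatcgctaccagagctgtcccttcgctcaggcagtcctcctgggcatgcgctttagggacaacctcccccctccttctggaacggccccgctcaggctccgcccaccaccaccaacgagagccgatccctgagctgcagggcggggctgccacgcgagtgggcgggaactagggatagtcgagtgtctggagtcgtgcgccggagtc

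The E-box CACGTG was present at position -185 of Gadd45b and at -142 of Gadd45g, counted back from -1 at the last base before the start, and in 6.02% of the 32851 promoters of the same length. Both of these promoters also held a TATAAA box (12.4% of promoters), at -46 in Gadd45b and -27 in Gadd45g, and at least 1 CCAAT box (33.8%). These 2 motifs were not particular to them: Btg1 held a TATAAA box at -26, and every window except that of Sertad1 held a CCAAT box. The full CRE TGACGTCA stood at -166 of Btg2 and in 1.55% of promoters, and it contains both of the half-site matches of that promoter. The half-site alone was present in 17.8% of promoters and, among the 7 genes, also in Btg1, with 2 matches. Sertad1 held none of these 4 capitalised motifs, and 3 copies of the GC box GGGCGG (32.7% of promoters). The AP-1 letters TGAGTCA and the CArG box were in none of the 7 windows. A match is a string of letters and does not show that a factor binds there.

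The 36 libraries listed between 24685 and 25517 genes above 0, and any pair correlated at 0.958 to 0.982 across genes. TPM values keep no record of depth, so the depth of each library is unknown here. Brd1 itself averaged 26.4 ± 3.03 TPM in WT vehicle (SD, n = 8) and 16.8 ± 2.72 TPM in Brd1+/- vehicle (SD, n = 9). All 7 cortical excitatory neuron markers had a group median of at least 1 TPM in each group. So did 9 of the 10 striatal markers, so this level alone cannot tell cortex from neighbouring tissue. A pair of libraries stood apart within their groups. WT vehicle replicate 1 had a summed oligodendrocyte marker level of 1852 TPM against a WT vehicle median of 282.2 TPM, and the lowest summed level of 13 immediate-early genes in its group (880.5 against a median of 1588 TPM). Neither value was extreme over all groups. Oligodendrocyte sums reached 2221 TPM in WT IMN and 2153 TPM in Brd1+/- IMN, and immediate-early sums fell to 817.5 and 566.8 TPM there. Brd1+/- vehicle replicate 6 had summed striatal markers of 1528 TPM against a group median of 224.0 TPM and choroid plexus markers of 3924 TPM against a group median of 2.69 TPM.

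Ier5 was the most abundant of the 8 genes, with a median of 53.6 TPM over the 36 libraries, and exceeded Gadd45b in 36 of 36 libraries. Gadd45b (24.2 TPM) and Gadd45g (20.4 TPM) followed, in that order in 30 of 36 libraries. Sertad1 (18.3 TPM) was below Gadd45g in 21 of 36, so the order of these neighbours was not stable between mice. Ier2 (11.7 TPM), Btg2 (11.0 TPM) and Gadd45a (9.57 TPM) lay close together, with Ier2 above Btg2 in 25 libraries and Btg2 above Gadd45a in 21. Btg1 was the least abundant at 5.05 TPM, below Gadd45a in 31 of 36 libraries. Gadd45a was also the most variable, with a coefficient of variation of 61.4% and a highest value 11.8 times the lowest, against 18.5% to 28.2% for the other 7 genes.

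The first question was how each gene stood under IMN in WT mice. Gadd45b, the stress- and activity-induced member of its family, was lower under IMN. It ran from 15.3 TPM through a median of 32.9 to 38.2 TPM in WT vehicle. In WT IMN it ran from 15.0 through 21.1 to 24.9 TPM. The 15.3 TPM was WT vehicle replicate 1, and the other 7 WT vehicle libraries lay between 31.0 and 38.2 TPM, above all 10 IMN libraries. The fitted level under IMN was 68.2% of vehicle (log2 difference -0.55, SE 0.14, on the log2(TPM + 0.5) scale used throughout) and 61.8% without that library (-0.69, SE 0.09).

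Sertad1, the CDK4 and E2F partner, had the same pattern. In WT vehicle it ran from 13.4 TPM through a median of 25.5 to 29.0 TPM, where 13.4 was again WT vehicle replicate 1 and the other 7 began at 24.8 TPM. In WT IMN it ran from 11.7 through 16.4 to 23.0 TPM. All 10 IMN libraries were therefore below those 7. The log2 difference was -0.55 (SE 0.14), or -0.66 (SE 0.11) without the library.

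Gadd45g, a GADD45 member with the same kinase and PCNA partners, ran from 11.4 TPM through 25.1 to 30.7 TPM in WT vehicle, with the lowest value again in replicate 1. In WT IMN it ran from 10.0 through 17.4 to 21.7 TPM. Here the groups overlapped with or without replicate 1: of the 10 IMN libraries, 6 were below the 19.9 TPM at which the other 7 vehicle libraries began. The log2 difference was -0.45 (SE 0.18), or -0.59 (SE 0.15) without replicate 1.

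**Figure D1:**
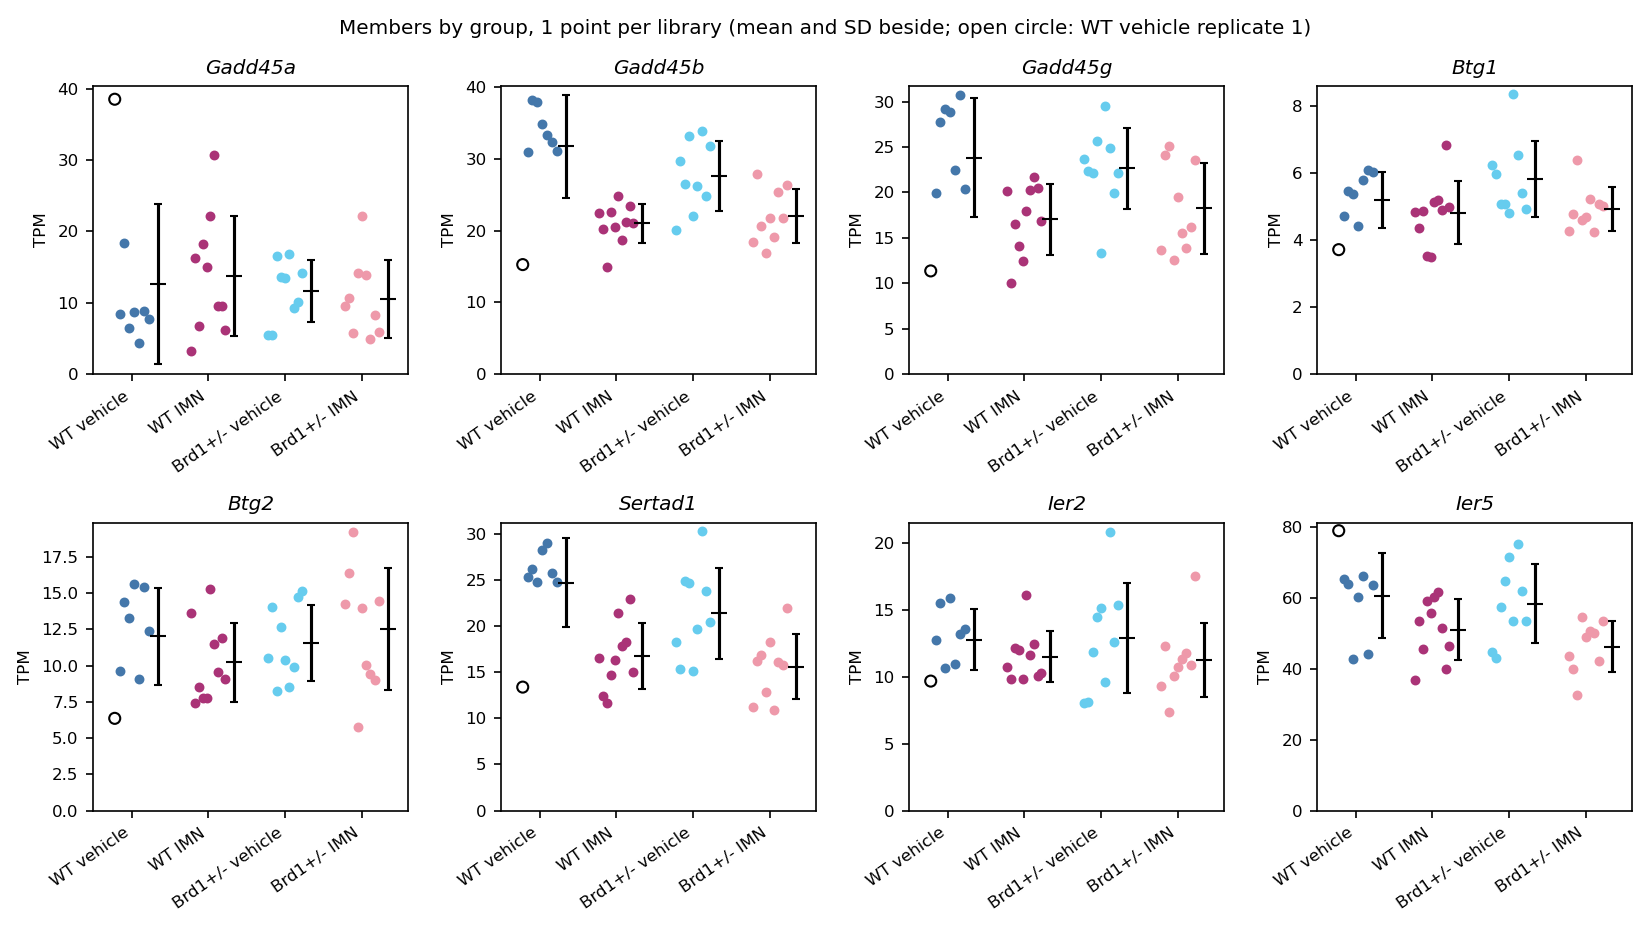
Level of each of the 8 genes in TPM (linear axis from 0) by group, with 1 point per library, the group mean and SD beside the points, and WT vehicle replicate 1 as an open circle. For Gadd45b and Sertad1 the open circle lies among the IMN values while the other 7 WT vehicle points lie above all WT IMN points, and for Gadd45a and Ier5 the open circle is the highest of all 36.

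The other 5 genes overlapped between WT vehicle and WT IMN. Ier5, the PP2A and HSF1 partner, averaged 60.7 ± 11.99 TPM in vehicle (SD, n = 8) and 51.1 ± 8.62 TPM under IMN (SD, n = 10), a log2 difference of -0.24 (SE 0.12). Btg2 (-0.21, SE 0.17), Ier2 (-0.14, SE 0.11) and Btg1 (-0.11, SE 0.12) had smaller differences of the same sign. Gadd45a was the exception, at 0.19 (SE 0.41): it ran from 4.31 through 8.50 to 38.5 TPM in vehicle and from 3.26 through 12.3 to 30.6 TPM under IMN. Its highest value, 38.5 TPM, was WT vehicle replicate 1, and the next vehicle value was 18.3 TPM. Without that library the difference of Gadd45a was 0.46 (SE 0.36) and that of Btg2 was -0.33 (SE 0.16). In that library Gadd45a and Ier5 were above the other 7 of the group while the remaining 6 genes were below them.

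In all, 7 of the 8 genes had a lower fitted level under IMN in WT mice, against 54.5% of all 25572 genes, with a median log2 difference of -0.22 against -0.01 over all genes. With all libraries limma called 0 of the 8 genes at an adjusted p under 0.05 (background 0%, 0 genes of 25572). An unadjusted p under 0.05 was found for 3 of the 8 and for 1687 of the 25572 genes tested. Without WT vehicle replicate 1 it called Gadd45b and Sertad1, both lower (background 0.113% lower). The WT groups did not overlap for 0 of the 8 genes with all libraries (0.0156% of genes were lower without overlap) and for these 2 genes without replicate 1 (0.0899%). The genes were chosen on this contrast, so nothing is read from these counts.

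In Brd1+/- mice most of the genes again had lower fitted levels under IMN. Gadd45b ran from 20.1 TPM through a median of 26.6 to 33.9 TPM in vehicle. Under IMN it ran from 16.8 through 21.8 to 27.9 TPM, with 8 of 9 libraries under the vehicle mean and 3 of 9 under the vehicle range. The groups overlapped, and the log2 difference was -0.32 (SE 0.11).

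Sertad1 ran from 15.1 through 20.4 to 30.2 TPM in Brd1+/- vehicle and from 10.9 through 16.1 to 21.9 TPM under IMN. Its log2 difference, -0.44 (SE 0.14), was the largest of the 8 in these mice. Ier5 ran from 43.2 through 57.6 to 75.4 TPM in vehicle and from 32.7 through 49.2 to 54.6 TPM under IMN, so all 9 IMN libraries were under the vehicle mean of 58.5 TPM although the ranges overlapped (-0.33, SE 0.12). Gadd45g was at 22.6 ± 4.43 TPM in vehicle and 18.2 ± 4.96 TPM under IMN (SD, n = 9 each), a log2 difference of -0.32 (SE 0.15).

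Btg1 (-0.21, SE 0.10), Gadd45a (-0.18, SE 0.28) and Ier2 (-0.16, SE 0.17) were lower by less. Btg2, the CCR4-NOT adaptor with the full CRE, was the 1 gene with a positive difference, 0.07 (SE 0.19), and its IMN libraries spread from 5.79 to 19.2 TPM. In Brd1+/- mice 7 of 8 genes were lower, against 47.5% of all genes. None of the 8 was called by limma (background 0.00391% lower). An unadjusted p under 0.05 was found for 4 of the 8 and for 1412 of the 25572 genes tested. No gene of the 8 was without overlap (0.00391% of genes lower).

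In the same contrast the 10 striatal markers were all lower under IMN (median log2 difference -0.45), as were the 5 choroid plexus markers tested of 7 (-0.28), with 0 of either list called by limma. Brd1+/- vehicle replicate 6 held the highest sums of both lists. The striatal sums ran from 182.3 through 224.0 to 1528 TPM in vehicle and from 163.5 through 212.5 to 233.0 TPM under IMN. The choroid plexus sums ran from 0.527 through 2.69 to 3924 TPM in vehicle and from 0.967 through 1.57 to 41.5 TPM under IMN. Without that library 8 of the 10 striatal markers (median -0.15) and 1 of the 5 choroid plexus markers (median 0.20) were lower. Gadd45b (-0.32, SE 0.12), Sertad1 (-0.45, SE 0.15) and Ier5 (-0.34, SE 0.12) had nearly the same differences without it. Gadd45g was at -0.27 (SE 0.16), Btg1 at -0.15 (SE 0.09), Gadd45a at -0.11 (SE 0.29), Btg2 at 0.02 (SE 0.19) and Ier2 at -0.21 (SE 0.18). Without it 3 of the 8 had an unadjusted p under 0.05, against 1463 of the 25572 genes tested, and limma called 0 of the 8.

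Over both genotypes, with genotype in the fit, Sertad1 was at 71.0% of vehicle (log2 difference -0.49, SE 0.10) and Gadd45b at 74.0% (-0.43, SE 0.09). Gadd45g (-0.39, SE 0.12) and Ier5 (-0.28, SE 0.09) came next, followed by Btg1 (-0.16, SE 0.08), Ier2 (-0.15, SE 0.10) and Btg2 (-0.07, SE 0.13). Gadd45a was at 0.00 (SE 0.25), with opposite signs in the 2 genotypes and a 95% interval from -0.51 to 0.52. Lower fitted levels were found for 7 of 8 genes and for 51% of all genes. Gadd45b and Sertad1 were among the 47 genes called lower (0.184%), beside 23 called higher. With the mitochondrially encoded genes left out, 31 were called lower and 32 higher. Without WT vehicle replicate 1 Gadd45g was added to them (0.485%).

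**Figure D2:**
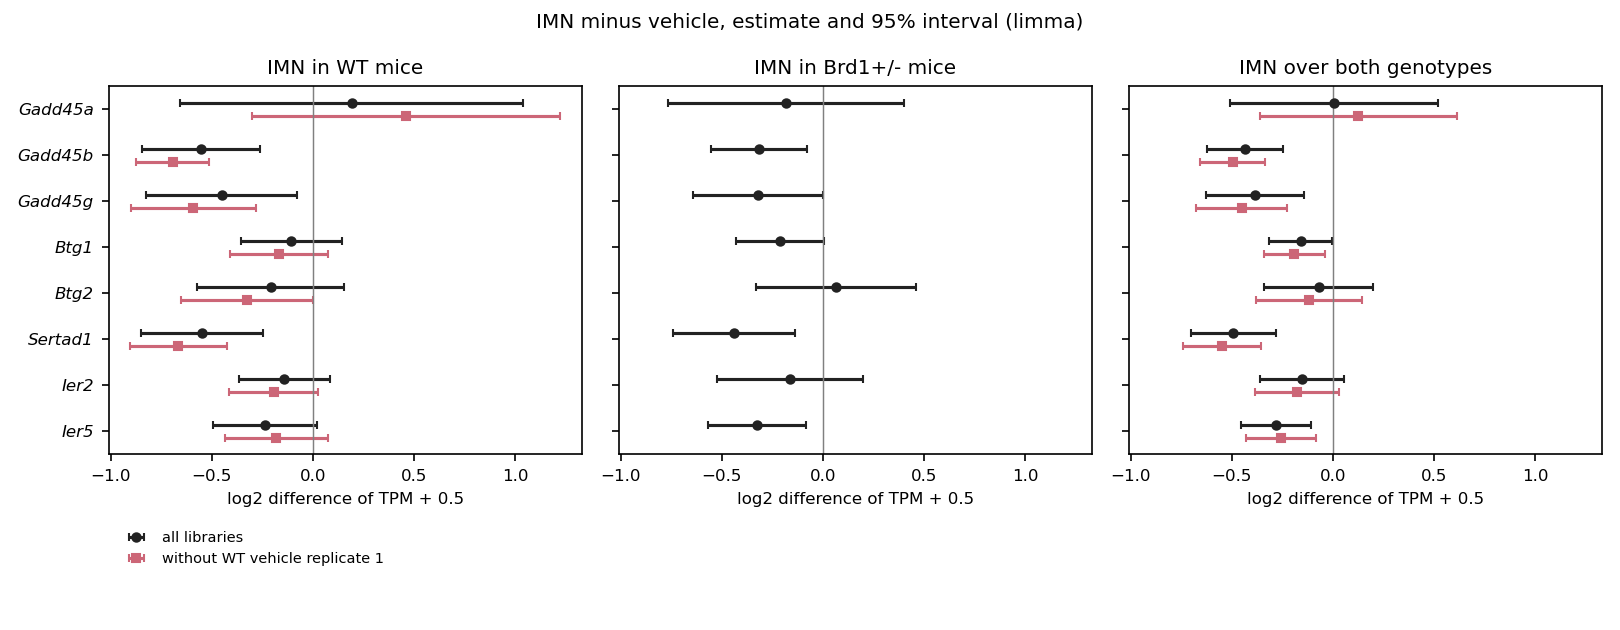
Log2 difference of TPM + 0.5 (IMN minus vehicle) with its 95% interval for each of the 8 genes, in WT mice, in Brd1+/- mice and over both, with all libraries (black circles) and without WT vehicle replicate 1 (red squares). Gadd45b and Sertad1 lie below 0 in all 3 panels, from -0.69 to -0.32, while the intervals of Gadd45a span 0 in each.

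Oligodendrocyte markers had higher fitted levels under IMN in both genotypes and are given here beside the result. Their part in it was not tested beyond the covariate that follows. The summed level of 7 markers (Mbp, Mog, Mag, Cnp, Mobp, Cldn11 and Ugt8a) ran from 128.8 through 282.2 to 1852 TPM in WT vehicle and from 153.2 through 609.9 to 2221 TPM in WT IMN. It ran from 144.9 through 365.8 to 1116 TPM in Brd1+/- vehicle and from 152.3 through 482.1 to 2153 TPM in Brd1+/- IMN, and no marker was at 0. All 7 were higher under IMN in WT mice, by a median log2 difference of 0.66, with 0 called and 0 at an unadjusted p under 0.05 by limma. The median was 0.96 without WT vehicle replicate 1, with 0 called and 2 of 7 at an unadjusted p under 0.05. In that fit 2701 of the 25572 genes tested had an unadjusted p under 0.05. In Brd1+/- mice all 7 were also higher under IMN, by a median of 0.16, with 0 called and 0 at an unadjusted p under 0.05 by limma. That median was 0.35 without Brd1+/- vehicle replicate 6. In bulk tissue, fewer cells of a type and less RNA per cell cannot be told apart.

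With the mean log2 level of those markers as a covariate, the IMN differences of Gadd45b and Sertad1 in WT mice were both -0.45 (SE 0.11 and 0.13). Without WT vehicle replicate 1 they were -0.62 (SE 0.09) and -0.59 (SE 0.12), and Gadd45b was then the 1 gene of 25572 that limma called (0.00391%). Over both genotypes with the covariate, Gadd45b (-0.39, SE 0.09), Sertad1 (-0.45, SE 0.10) and Ier5 (-0.34, SE 0.07) were called lower (background 0.172%). The genes were chosen with these IMN differences known. The covariate and the left-out library were also settled after the data were seen, so nothing is read from these calls. Gadd45a, whose level correlated with these markers, went from 0.19 to -0.15 (SE 0.30) in WT mice under the covariate.

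The second question was whether the genotype moved these genes, a contrast that did not choose them but that shares its vehicle and IMN libraries with the contrasts that did. With vehicle, limma called 0 of the 8 genes (background 0%, 0 genes) and 0 of 8 had an unadjusted p under 0.05, against 3.75% of all genes. The log2 differences, Brd1+/- minus WT, ran from -0.21 for Sertad1 to 0.15 for Btg1. For Gadd45b the difference was -0.18 with a 95% interval from -0.50 to 0.15, and a 2-sided exact permutation test gave p = 0.316 (adjusted p 0.9998 by limma over all genes). For Gadd45a the interval ran from -0.62 to 0.83, so changes of nearly that size in either direction were not detectable here. Btg1 was the highest of all 36 libraries in Brd1+/- vehicle replicate 6, and its difference was 0.08 without that library.

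The vehicle contrast was different without WT vehicle replicate 1 for Gadd45b and Sertad1. Gadd45b then stood at 34.1 ± 3.01 TPM in WT (SD, n = 7) and 27.6 ± 4.87 TPM in Brd1+/- mice (SD, n = 9), with 9 of 9 Brd1+/- libraries under the WT mean and 6 of 9 under the WT range. The log2 difference was -0.32 (95% interval -0.53 to -0.10), with an exact permutation p = 0.00944 and a limma adjusted p of 0.644. For Sertad1 the difference was also -0.32 (interval -0.58 to -0.07), with an exact permutation p = 0.0251 and an adjusted p of 0.712, and 7 of 9 Brd1+/- libraries were under the WT range. Thus 0 of 8 genes were called (0%) and 2 of 8 had an unadjusted p under 0.05, against 6.61% of genes. Both results rest on leaving out 1 library that was singled out with the values of these genes known. The oligodendrocyte markers also differed in this contrast, with a median log2 difference of 0.34 with all libraries and 0.64 without replicate 1, and with their score as a covariate the 2 differences without replicate 1 were -0.32 for Gadd45b and -0.36 for Sertad1 (SE 0.11 and 0.13).

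Under IMN the 2 genotypes lay closer for Gadd45b, at 21.03 ± 2.76 TPM in WT (SD, n = 10) and 22.0 ± 3.79 TPM in Brd1+/- mice (SD, n = 9), a log2 difference of 0.06 (interval -0.15 to 0.27; exact permutation p = 0.559). Limma called 0 of the 8 genes (background 0%, 0 genes), and 0 of 8 had an unadjusted p under 0.05, against 3.23% of genes. The estimates ran from -0.27 for Gadd45a to 0.24 for Btg2, and the exact permutation p of the 8 ran from 0.240 to 0.7003.

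The third question was whether the IMN difference itself depended on genotype. The interaction (the IMN difference in Brd1+/- minus that in WT mice) was called by limma for 0 of 8 genes (background 0%, 0 genes), with 0 of 8 at an unadjusted p under 0.05 against 3.2% of genes. It was 0.24 for Gadd45b (interval -0.14 to 0.61), 0.11 for Sertad1 (-0.32 to 0.53) and 0.27 for Btg2 (-0.26 to 0.81). Without WT vehicle replicate 1 the Gadd45b interaction was 0.38 (0.08 to 0.67), with a limma adjusted p of 0.993. Gadd45b was the 1 gene of 8 at an unadjusted p under 0.05 (4.1% of genes), and 0 of 8 were called (0%). That result rests on leaving out 1 library that was singled out with the values of these genes known. The interaction is also built from IMN differences that were known when the genes were chosen.

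**Figure D3:**
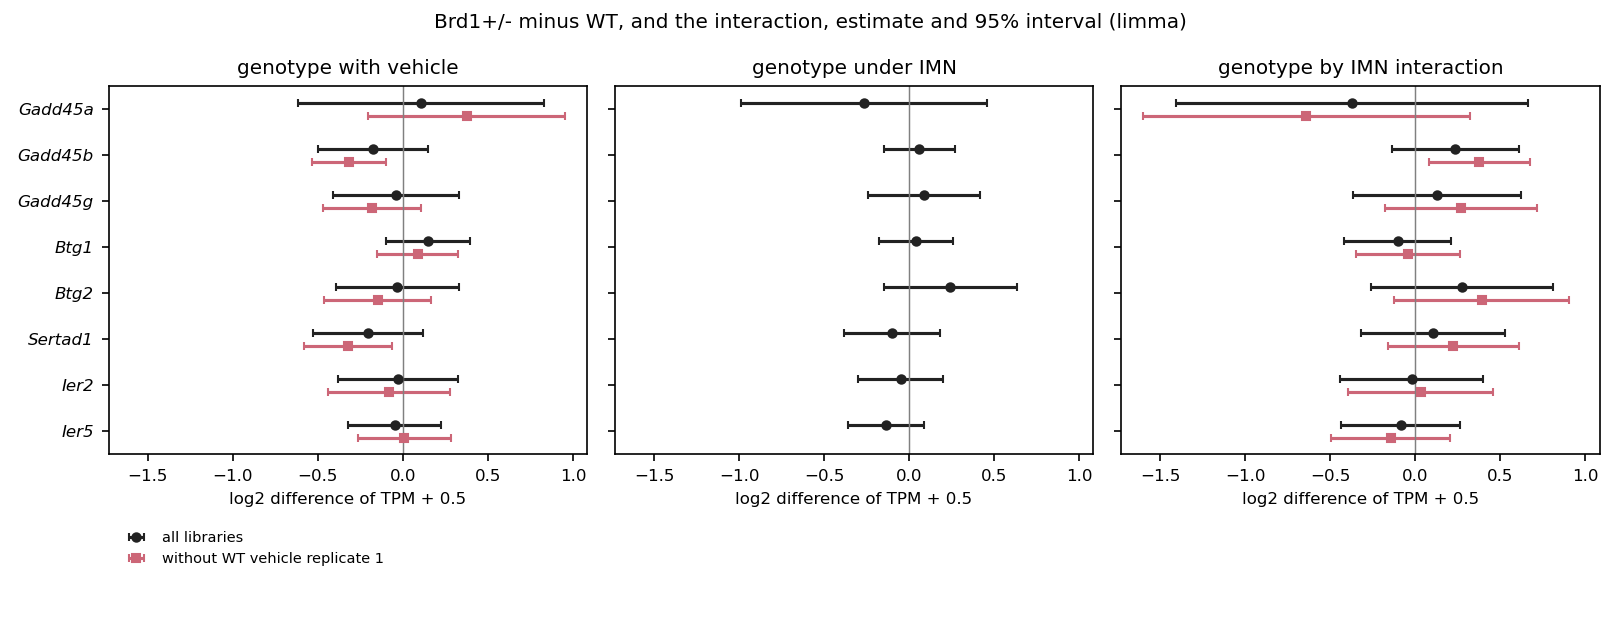
Log2 difference of TPM + 0.5 between Brd1+/- and WT mice with vehicle and under IMN, and the interaction, each with its 95% interval, with all libraries (black circles) and without WT vehicle replicate 1 (red squares). With all libraries the intervals of all 8 genes include 0 in the 3 panels. Without replicate 1 those of Gadd45b and Sertad1 lie below 0 with vehicle and that of Gadd45b lies above 0 for the interaction. These exceptions rest on leaving out that 1 library.

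The 8 genes did not vary as 1 block between mice. After the group mean was subtracted from each log2 level, Gadd45b and Sertad1 correlated at r = 0.72 over 36 libraries (Spearman rho 0.57), 0.58 without the 2 libraries farthest from the median of Gadd45b and 0.61 without WT vehicle replicate 1 and Brd1+/- vehicle replicate 6. Gadd45g correlated with Sertad1 (0.66), Btg2 (0.65), Btg1 (0.63) and Gadd45b (0.60), and without those 2 libraries at 0.59, 0.65, 0.53 and 0.45. Btg2 correlated with Gadd45b at 0.52 and with Sertad1 at 0.43, falling to 0.39 and 0.30 without them. Ier5 ran the other way, at -0.50 with Gadd45g and -0.45 with both Btg1 and Btg2. It correlated positively with Gadd45a (0.58) and Ier2 (0.52). Ier2 in turn correlated with Gadd45b (0.46) and Sertad1 (0.48), and at 0.44 with each without those 2 libraries, so the genes did not fall into separate sets. Over the 28 pairs r ran from -0.50 to 0.72 with a median of 0.22. These are descriptions over libraries that share their TPM scaling, and members of a pair can share any cell type or library effect.

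The genes also differed in how they correlated with other genes of the tissue. A score of 13 immediate-early genes (such as Fos, Egr1, Arc and Npas4, made in neurons soon after they fire) correlated with Gadd45b (r = 0.73), Sertad1 (0.72), Btg2 (0.61) and Gadd45g (0.59), and at 0.57, 0.61, 0.52 and 0.48 without the 2 libraries. With Ier2 it correlated at 0.27 and with Ier5 at -0.31. The score of oligodendrocyte markers correlated with Gadd45a at 0.71 (0.64 without the 2 libraries) and with Ier5 at 0.62, but with Gadd45b at -0.44 (-0.26) and with Sertad1 at -0.36 (-0.20). Ier5 also correlated with the interneuron markers at 0.78, and Btg1 with the astrocyte markers at 0.59. Gadd45a was not tied to the oligodendrocyte list alone. It correlated with the astrocyte and endothelial markers at -0.64 each, and with the striatal markers at 0.43 (0.63). Ier5 correlated with the astrocyte markers at -0.48 and with the endothelial markers at -0.54. The score of cortical excitatory neuron markers correlated with Gadd45g at -0.53, Gadd45b at -0.45 (-0.32), Btg1 at -0.44, Btg2 at -0.43 and Sertad1 at -0.33 (-0.20). With Ier2 that score correlated at -0.22, with Gadd45a at 0.23 and with Ier5 at 0.18. The mitochondrially encoded share, which ran from 21.7% to 30.5% of TPM, correlated with Gadd45a at -0.54 and with the other 7 genes at -0.25 to 0.03.

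**Figure D4:**
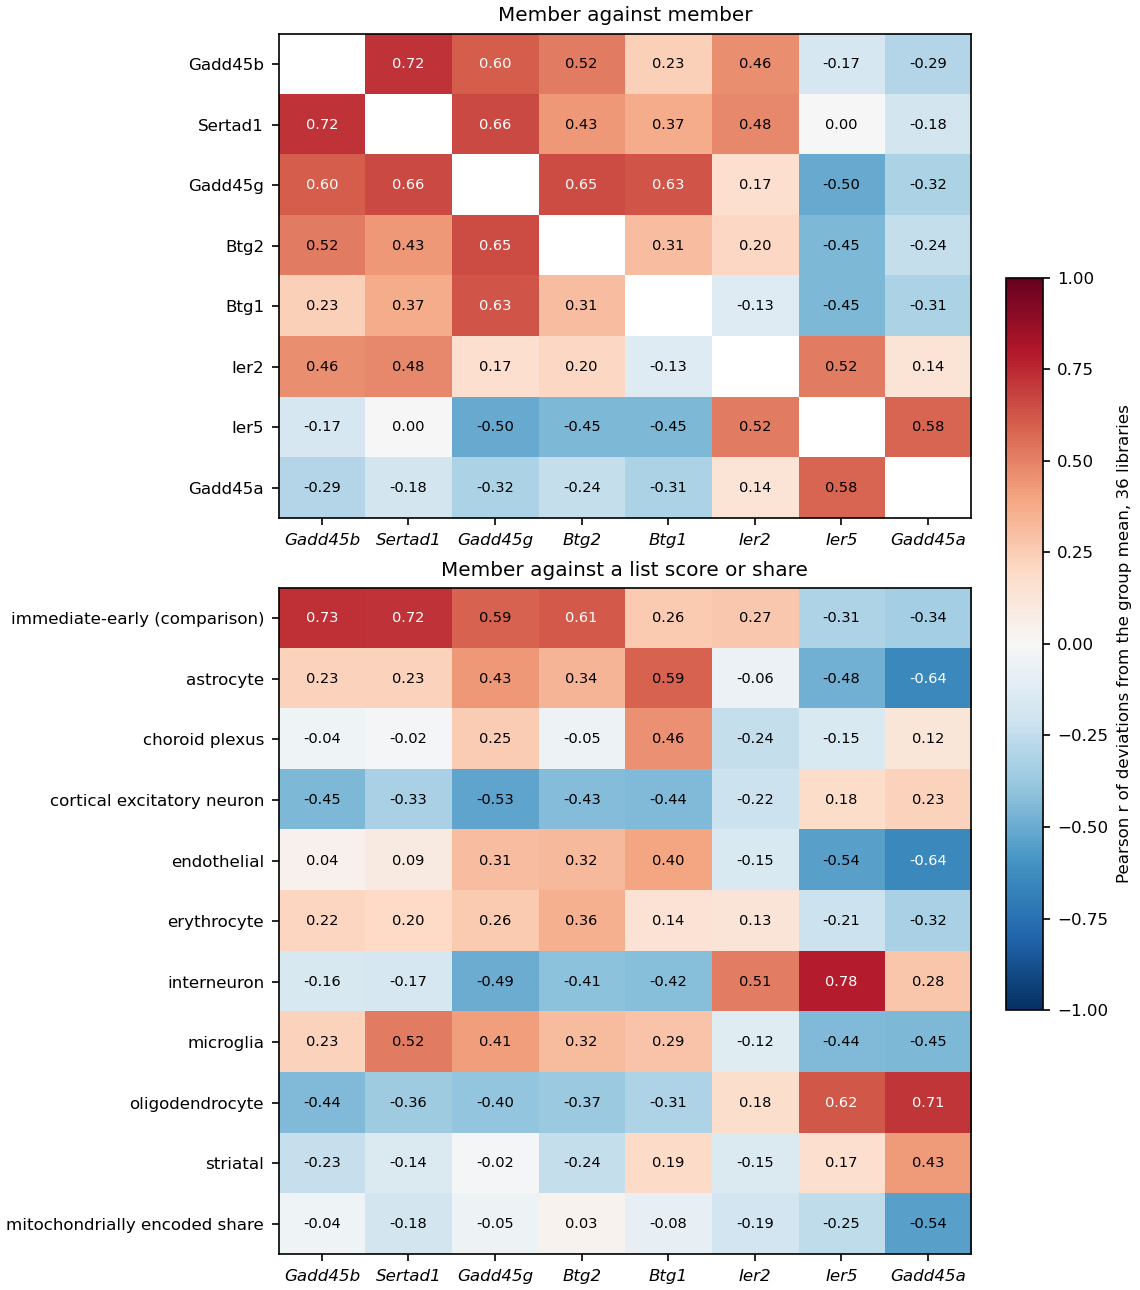
Pearson r of deviations from the group mean over 36 libraries, between the 8 genes (top) and between each gene and the mean log2 level of a list of genes or the mitochondrially encoded share (bottom). Gadd45b, Sertad1, Gadd45g and Btg2 are positive with one another, from 0.43 to 0.72, and with the immediate-early list. Ier2 is also positive with Gadd45b (0.46) and Sertad1 (0.48), and Btg1 with Gadd45g (0.63). Gadd45a and Ier5 are positive with the oligodendrocyte list and negative with the astrocyte and endothelial lists.

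**Figure D5:**
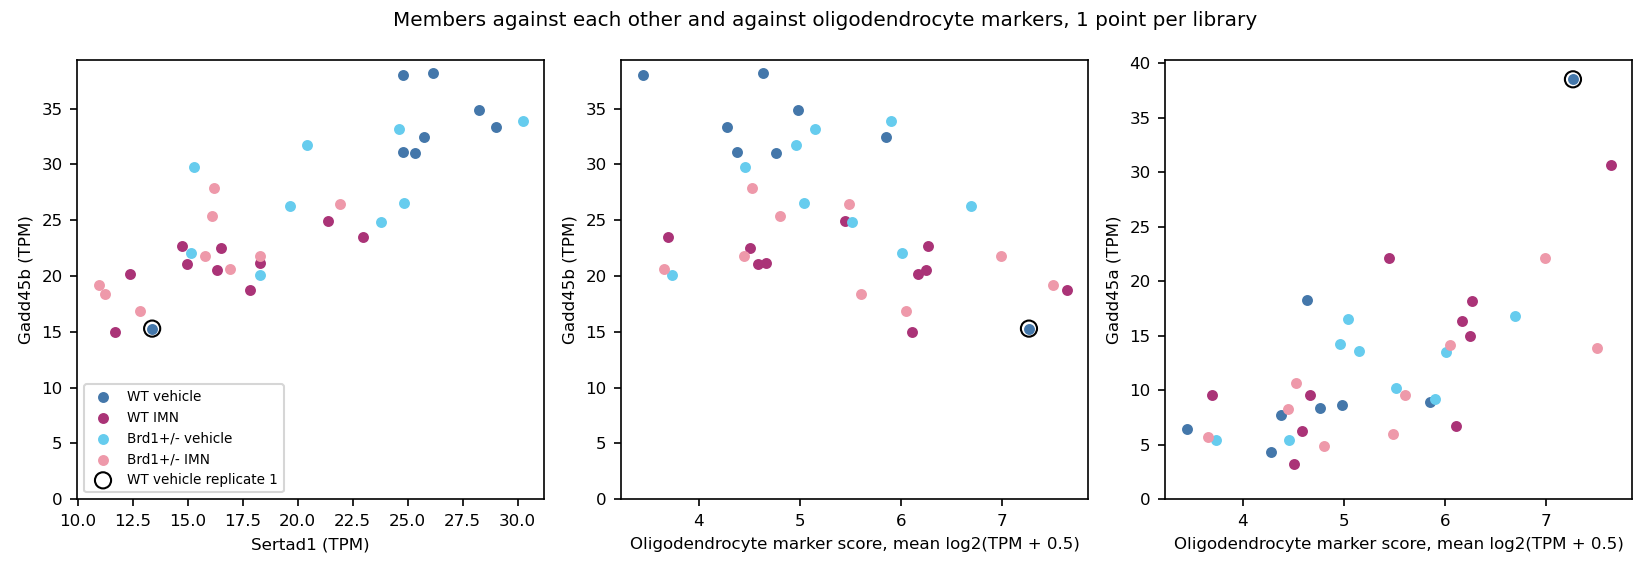
Gadd45b against Sertad1, and Gadd45b and Gadd45a against the oligodendrocyte marker score (mean log2(TPM + 0.5) of 7 genes), with 1 point per library, colour by group and a ring around WT vehicle replicate 1. The ringed library has low Gadd45b and Sertad1 (15.3 and 13.4 TPM), a high marker score and the highest Gadd45a (38.5 TPM).

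Among the 17696 genes that averaged 1 TPM or more, those most like each member over the 36 libraries were different ones. For Gadd45b they were Metrnl (r = 0.74), Pdgfa (0.72) and the AP-1 subunit gene Junb (0.72), falling to 0.56, 0.51 and 0.55 without the 2 libraries. For Sertad1 they were Pdgfb (0.80), the CDK inhibitor gene Cdkn1a (0.78) and the MAP kinase-interacting kinase gene Mknk2 (0.78), at 0.75, 0.71 and 0.80 without them. For Btg2 the first was Npas4 (0.74), the activity-induced transcription factor, followed by Nectin2 (0.71) and 1700016P03Rik (0.70). For Gadd45g they were Gpr4 (0.79), Mdk (0.78) and Ly6h (0.78).

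Gadd45a had the closest partners of all, namely the neurexophilin gene Nxph3 (0.89, and 0.88 without the 2 libraries), Tcte1 (0.88) and Cwh43 (0.88). Btg1 was most like Id4 (0.85), Idh2 (0.84) and Zic1 (0.78). Ier2 was most like Alkbh6 (0.76), the phosphatase gene Dusp1 (0.75) and Mrps18a (0.73). Ier5 was most like Cox6a1 (0.84), the synaptic SNARE gene Snap25 (0.83) and Gm11549 (0.83).

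The partners of these proteins were taken from the same fits. Of 9 genes for GADD45 partners in DNA repair, demethylation and the cell cycle, 8 were tested (Cdk1 was too low). Over both genotypes 1 was called lower (background 0.184%): Tet3, which oxidises 5-methylcytosine. Tet3 averaged 20.1 ± 2.47 TPM in WT vehicle and 15.4 ± 1.91 TPM in WT IMN (SD, n = 8 and 10), and 18.4 ± 2.79 and 15.1 ± 1.89 TPM in the Brd1+/- groups (SD, n = 9 each). Its log2 difference over both genotypes was -0.32 (SE 0.07, limma adjusted p = 0.0165), and the group ranges overlapped in both genotypes. The median of the 8 was -0.06, against 0.00 over all genes.

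Of the 9 genes of the stress kinase pathway that GADD45 proteins bind into, 0 were called by limma and 5 had an unadjusted p under 0.05 over both genotypes, with a median of 0.01. The share of all genes at an unadjusted p under 0.05 in this fit was 9.38%, which is the background for each of the list counts that follow. The smallest p was that of the p38 kinase kinase Map2k6, which was higher under IMN by 0.36 (SE 0.09, adjusted p = 0.0566): it averaged 7.84 ± 1.31 and 9.77 ± 1.49 TPM in WT vehicle and WT IMN (SD, n = 8 and 10), and 9.11 ± 2.05 and 12.3 ± 2.70 TPM in Brd1+/- mice (SD, n = 9 each). None of the 12 BTG partners of the deadenylase and PRMT1 was called, with 2 at an unadjusted p under 0.05 and Cnot9 lowest in p (-0.10, SE 0.04, adjusted p = 0.453). None of the 6 SERTAD1 partners was called, with 1 at an unadjusted p under 0.05, Tfdp1 (-0.16, SE 0.06, adjusted p = 0.336). None of the 9 IER partners was called, with 2 at an unadjusted p under 0.05, and Hsf1 was lowest in p (-0.13, SE 0.04, adjusted p = 0.115).

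Among 11 relatives of the 8 genes, 10 were tested and 0 were called by limma, with 2 at an unadjusted p under 0.05. Btg4 was listed at 0, and the smallest p was that of the SERTA-domain gene Cdca4 (-0.20, SE 0.06, adjusted p = 0.169). In the p53 and growth-arrest list 0 of 15 genes were called with all libraries, with 3 at an unadjusted p under 0.05 (9.38% of all genes). Cdkn1a, which encodes the CDK inhibitor p21, averaged 80.9 ± 21.8 and 56.3 ± 11.2 TPM in WT vehicle and WT IMN (SD, n = 8 and 10), and 64.0 ± 12.4 and 50.9 ± 16.7 TPM in Brd1+/- mice (SD, n = 9 each). Its log2 difference over both genotypes was -0.43 (SE 0.13, limma adjusted p = 0.161), and -0.50 (SE 0.12, adjusted p = 0.0314) without WT vehicle replicate 1. The median of the 15 was -0.04.

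The immediate-early genes were taken for comparison, with earlier results of these data known. Of 13, 12 were lower over both genotypes (51% of all genes), with a median of -0.61. Of these, 3 were called (background 0.184% lower): Npas4 at -0.94, Egr1 at -0.66 and Arc at -0.67, with limma adjusted p of 0.00318, 0.00939 and 0.0108. Of the 13, 10 were called without WT vehicle replicate 1, all lower (background 0.485% lower). That library had the lowest sum of these 13 genes in its group (880.5 TPM). Leaving it out therefore raises the vehicle level of the list, and nothing is read from the added calls. The differences of Gadd45b (-0.43) and Sertad1 (-0.49) were smaller than that median, and this was not tested. In none of the 8 lists was a gene called by limma for genotype or for the interaction, with or without WT vehicle replicate 1. At most 4 genes of a list had an unadjusted p under 0.05 there. These were 4 of the 13 immediate-early genes with vehicle and without that library, against 6.61% of all genes. The same limit holds for this count, since the left-out library was the lowest of its group in the sum of these genes.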

How the data were processed

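RNA of 36 aCC punches was sequenced by the authors as single-end reads of 50 bp on a BGISEQ-500. According to the submitters' processing notes, FastQC, Trimmomatic, HISAT2 2.1.0 and StringTie 1.3.4 were used with GRCm38. The deposited values are TPM, scaled by the authors to about the same total in each library over 52636 Ensembl genes, of which 233 had no symbol in the table of gene names used here. TPM carries no depth, so no counting interval is given. The number of columns that matched no sample was 0.

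The values were analysed as log2(TPM + 0.5) for the 25572 genes that reached 0.1 TPM in 8 or more libraries, with limma 3.58.1 (lmFit, eBayes with trend) in R 4.3.3 and Benjamini-Hochberg adjustment over all of these genes at 0.05. Each 2-group contrast used its own libraries, and the IMN contrast over both genotypes (genotype as a term) and the interaction used 36. Count-based tools of the study could not be applied to TPM. Single genes were compared between genotypes by 2-sided exact permutation tests. Fits were tested on simulated data. No pair of libraries held identical values. The study's methods describe litter-matched mice housed in groups, and which libraries shared a litter or a cage was not used here. The members, lists and markers were chosen with earlier results of these data known. Genes named beyond the members are those of the lists with an adjusted p under 0.05, the gene with the smallest p in each partner list, and the 3 genes most like each member by r. WT vehicle replicate 1 was left out in a second fit, and the covariate for oligodendrocyte markers was added after the data were seen. An item of a marker list is not reported here and was left out of every value of that list. Gene positions are from GENCODE on GRCm38, and promoters are from RefSeq on GRCm38.p6.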

Additional observations from a re-analysis of the deposited data

Results flagged for a closer look

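In 8 of the 32 combinations of gene and group, the highest or lowest library lay farther from its nearest neighbour than Dixon's test allows at 95%, where chance gives about 1 in 20. WT vehicle replicate 1 gave 3 of the 8: Gadd45b at 15.3 TPM (next 31.0), Sertad1 at 13.4 TPM (next 24.8) and Gadd45a at 38.5 TPM (next 18.3). Btg1 was high at 6.83 TPM in WT IMN replicate 9 (next 5.18), at 8.35 TPM in Brd1+/- vehicle replicate 6 (next 6.54) and at 6.40 TPM in Brd1+/- IMN replicate 3 (next 5.24). Ier2 was high at 16.1 TPM in WT IMN replicate 6 (next 12.5) and at 17.5 TPM in Brd1+/- IMN replicate 9 (next 12.3). WT vehicle replicate 1 also had a high oligodendrocyte marker sum for its group, and Brd1+/- vehicle replicate 6 high striatal and choroid plexus sums. Their part in these values was not tested.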

How the results depend on the processing

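In WT mice limma called 2 of the 8 genes without WT vehicle replicate 1 instead of 0, and with the added oligodendrocyte covariate as well it called 1. Leaving out single libraries gave 0 to 2 genes called in WT mice and 1 to 3 over both genotypes. Over both genotypes Gadd45b lost its call without WT vehicle replicates 2, 3, 5 or 6 and without Brd1+/- vehicle replicates 4 or 9, while Sertad1 was called in all 36 of these fits. The replicate numbers gave little sign of pairing in the values: same-numbered libraries of 2 groups had median correlations of -0.05 to 0.03 in their deviations. Single pairs reached 0.26, and at most 2 of 9 libraries were closest to their own number. Such correlations cannot exclude a pairing by litter or cage. The fit with the replicate block called 1 of the 8 genes over both genotypes (Sertad1) and 42 genes in all instead of 70, and it called 0 of the 8 in the other comparisons. The count of all genes called over both genotypes ran from 35 (without WT vehicle replicate 3) to 170 (without WT vehicle replicate 1) as libraries were left out, and was 191 with array weights. The cause of these changes was not tested.

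For the genotype with vehicle, the covariate turned Gadd45a to -0.0744, Gadd45g to 0.00793 and Btg2 to 0.0192. For the interaction, Ier2 stood at 0.0667 with array weights, and the covariate with 35 libraries gave 0.0951. As libraries were left out, estimates near 0 changed sign within these ranges: with vehicle, Btg2 -0.149 to 0.0272, Gadd45a -0.0551 to 0.376, Gadd45g -0.182 to 0.0469, Ier2 -0.120 to 0.0454 and Ier5 -0.117 to 0.00865. Under IMN they were -0.00315 to 0.0950 for Btg1 and -0.131 to 0.0180 for Ier2, and for the interaction -0.103 to 0.0702 for Ier2. The IMN differences of the 8 genes moved by less than 1 SD between replicates under each alternative, but near 0 some changed sign: Gadd45a in WT mice was -0.15 with the covariate, Gadd45a over both genotypes was -0.19 with it (-0.12 with 35 libraries), -0.00131 with quantile normalization and -0.08 to 0.13 as libraries were left out, lower in 18 of 36 of these fits, and Btg2 in Brd1+/- mice was -0.02 to 0.19. The other genotype and interaction estimates kept their sign and were not called. Without the mitochondrially encoded genes the 63 genes called over both genotypes split into 32 higher and 31 lower, against 23 and 47 with them, and Gadd45b and Sertad1 stayed lower.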
